A study of Mus musculus with 4 samples.

Results

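Centromere, kinetochore and condensin genes build the machinery that holds and moves chromosomes in mitosis, and 30 of 31 listed genes were measured in embryonic lung among 19938 genes in all. A gene was counted when a probe set of the array carried its symbol and no other. Where a gene had several such probe sets, as only *Top2a* did, the brightest over all arrays stood for it. *Hjurp*, the chaperone of the centromeric histone, lies on a probe set that carries 2 symbols and was not analysed here. The lungs came from C57BL/6 mouse embryos at E18.5, shortly before birth, as 2 biological replicates with the *Hmga2*+/+ genotype (WT) and 2 with *Hmga2*-/- (KO), each on 1 Affymetrix array. *Hmga2* codes for a chromatin protein of the high mobility group, the deletion was constitutive, and each array reads whole lung. The titles of both WT samples share a group name, and that they come from separate embryos rests on their label as biological replicates. If they do not, p values measure technical spread. Values are log2 expression after RMA. That procedure corrects the background, is meant to put the arrays on a common scale and summarises the probes of each set. Array medians over all genes still differed. They were 8.19 in WT replicate 1 and KO replicate 2, and 8.34 in WT replicate 2 and KO replicate 1. A difference of 1 on this scale is a 2-fold change.

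The centromere is the stretch of a chromosome marked by nucleosomes with the histone variant CENP-A. A constitutive network of CENP proteins sits on it through the cell cycle, and in mitosis the outer kinetochore is built on that network. There the NDC80 complex grips the microtubules of the spindle. Condensin complexes and topoisomerase II alpha fold the copied DNA into compact chromosomes, and Ki-67 coats their surface. Many of these genes are transcribed mainly in late S phase, G2 and M phase, so that in a tissue their RNA is found chiefly in dividing cells. In whole lung, more dividing cells and more RNA per dividing cell cannot be told apart.

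The probe set for *Hmga2* itself did not separate the groups. It read 9.35 in WT replicate 1, 9.59 in WT replicate 2, 9.65 in KO replicate 1 and 9.39 in KO replicate 2 (difference 0.051 with a standard error, SE, of 0.16, limma adjusted p = 0.892). Its place relative to the deletion is unknown here, so KO below always means the arrays labelled KO. Markers of lung epithelium and mesenchyme were bright on every array, with *Sftpc*, the surfactant protein C gene, between 13.97 and 14.13. Over all genes, the arrays labelled KO correlated at r = 0.998, the WT arrays at 0.987, and WT replicate 1 correlated with the arrays labelled KO at no more than 0.977. WT replicate 2 correlated with KO replicates 1 and 2 at 0.992 and 0.991, more than with WT replicate 1. WT replicate 1 thus stands apart, and differences were also taken against each WT array alone.

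All 30 genes had a higher mean in KO than in WT, as did 41.2% of all genes. The median log2 difference was 0.94, a fold of 1.92, while the median over all genes was −0.051. The smallest difference was that of *Cenpo* (0.14) and the largest that of *Cenpm* (1.42). In 29 genes both arrays labelled KO lay above both WT arrays, against 17.6% of all genes. The KO mean was above the WT mean by more than 1.2-fold in 29 genes (13.4% of all genes) and by more than 2-fold in 12 (0.772%).

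None of the 30 genes passed limma's test adjusted over all genes, a test that 0.0802% of all genes passed as higher and 0.702% as lower. At an unadjusted p under 0.05, limma held 27 of the 30 as higher, where it held 5.88% of all genes. The gene nearest to the threshold was *Cenpf*, at an adjusted p of 0.0511. Each gene was measured in 2 arrays a group, and an exact permutation test of 2 against 2 cannot go below p = 0.333.

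At the median, the WT arrays differed from each other by about as much as the arrays labelled KO differed from WT replicate 2. WT replicate 1 was the lower WT array for 29 of the 30 genes, the exception being *Cenpo*, where 58.3% of all genes were lower in it. The median gap between the WT arrays was 0.65 for the 30 genes and 0.059 over all genes. From WT replicate 2 up to the mean of the arrays labelled KO the median step was 0.63, and from WT replicate 1 it was 1.31. The order WT replicate 1, WT replicate 2, both arrays labelled KO held for 29 of the 30 genes and for 15.3% of all genes. In contrast, KO replicates 1 and 2 were close, with KO replicate 1 higher by a median of 0.15 (0.10 over all genes) and higher for 28 of the 30 genes (78.3% of all genes).

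Against WT replicate 2 alone, every one of the 30 genes still had a higher mean in the arrays labelled KO, by 0.17 to 0.86, and 27 of them by more than 1.2-fold (6.01% of all genes). None was past 2-fold against that array (0.125% of all genes), whereas 21 were against WT replicate 1 (2.13%), so the count of 12 rests on WT replicate 1. In that setting limma called 21 of the 30 genes higher (2.53% of all genes), and against WT replicate 1 alone 29 (16.7%), all but *Cenpo*. The median difference of the 30 genes was 0.85 without KO replicate 1 and 1.01 without KO replicate 2. In these fits limma's adjusted test could not set the 30 genes apart from all genes, and no conclusion is drawn from it. They lean on the gap between the WT arrays, which was wide. The counts of 21 and 29 lean on the gap between the arrays labelled KO, which was narrow. In each case the lone array is assumed to vary alike. With cyclic loess in place of the deposited scale, limma called 4 of the 30 genes higher (0.401% of all genes), and 0 (0.0752%) when all probe sets of each gene were averaged.

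**Figure D1:**
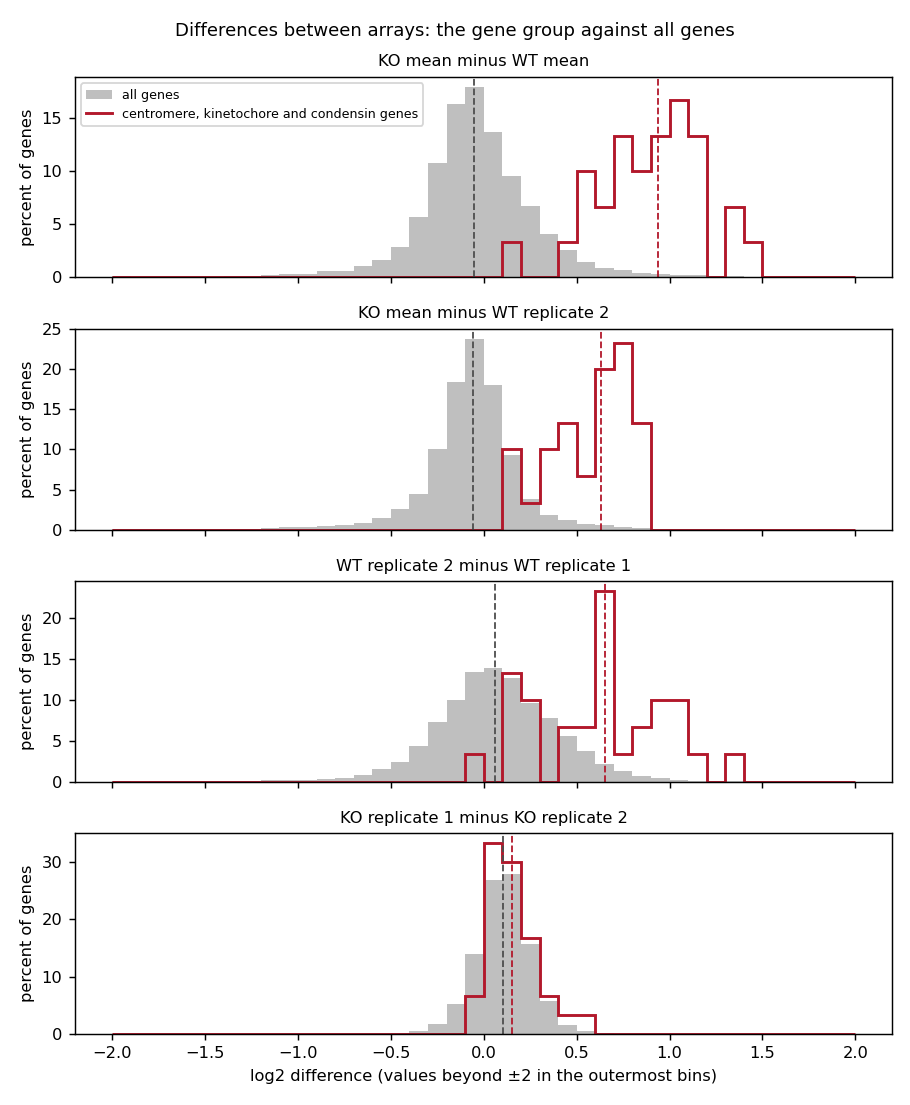
Share of genes (y axis, percent) by log2 difference (x axis, bins of 0.1) for all 19938 genes (grey) and for the 30 centromere, kinetochore and condensin genes (red outline), with dashed lines at the medians. The red outline lies to the right of the grey in the upper 3 panels, with medians of 0.94, 0.63 and 0.65, and close to it between the arrays labelled KO, with a median of 0.15.

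Genes of this machinery that peak in mitosis are known to carry CCAAT boxes, bound by NF-Y, and a cell cycle gene homology region, bound by the DREAM complex and by B-MYB complexes, while E2F sites are typical of genes of the G1 to S transition. Promoters are shown because the 30 genes lay higher together. RefSeq windows of 280 bases (250 before the annotated start and 30 after it, assembly GRCm38.p6) were searched on both strands for the homology region, spelled TTTGAA or else TTCGAA in full, and for CCAAT as the box. The E2F site was searched as TTCCCGC, with TTCGCGC, also TTGCCGC and lastly TTGGCGC as its other spellings. All genes but *Smc4* and *Spc24*, 28 in number, were matched, with 31 windows in all, since *Cenpk* and *Ncapd3* have several annotated starts. The homology region was found in 15 windows (48.4%, against 18.4% of 32851 windows of all genes), the CCAAT box in 20 (64.5% against 36.1%) and the E2F site in 9 (29.0% against 8.90%). Both homology region and CCAAT box were found in 12 windows (38.7% against 6.92%), and matches to different motifs overlapped once, in *Cenpw*. None of the motifs was found in 7 windows (22.6% against 47.4%), those of *Cenph*, *Cenpo*, *Cenpp*, *Cenpt*, *Ndc80*, *Nuf2* and *Ncaph*. Among these, *Cenpo* (0.14) and *Cenpt* (0.44) had the smallest differences of the 30 genes. The others had 0.89 (*Cenpp*), 0.96 (*Nuf2*), 0.96 (*Ncaph*), 1.09 (*Ndc80*) and 1.33 (*Cenph*), beside a median of 0.94 for the 30 genes. A link between motifs and differences was not tested. These matches describe letters only and name no bound factor.

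The promoters of the 5 genes with the smallest p among those with both motifs are printed 5′ to 3′ on the strand of the gene, with the homology regions and CCAAT boxes of either orientation in capitals.
*Cenpf*, chr1:189688057-189688336, minus strand: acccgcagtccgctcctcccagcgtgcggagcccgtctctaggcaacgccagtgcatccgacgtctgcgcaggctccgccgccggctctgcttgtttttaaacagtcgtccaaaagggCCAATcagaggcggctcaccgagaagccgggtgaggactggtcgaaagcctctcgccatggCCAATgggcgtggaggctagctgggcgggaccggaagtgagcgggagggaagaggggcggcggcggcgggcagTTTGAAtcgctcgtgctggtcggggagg
*Mki67*, chr7:135716350-135716629, minus strand: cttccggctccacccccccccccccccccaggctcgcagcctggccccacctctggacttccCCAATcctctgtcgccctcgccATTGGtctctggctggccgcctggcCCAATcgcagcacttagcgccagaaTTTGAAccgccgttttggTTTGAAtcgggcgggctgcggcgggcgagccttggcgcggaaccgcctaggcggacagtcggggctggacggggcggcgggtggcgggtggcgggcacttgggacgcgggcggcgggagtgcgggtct
*Ncapd2*, chr6:125191557-125191836, minus strand: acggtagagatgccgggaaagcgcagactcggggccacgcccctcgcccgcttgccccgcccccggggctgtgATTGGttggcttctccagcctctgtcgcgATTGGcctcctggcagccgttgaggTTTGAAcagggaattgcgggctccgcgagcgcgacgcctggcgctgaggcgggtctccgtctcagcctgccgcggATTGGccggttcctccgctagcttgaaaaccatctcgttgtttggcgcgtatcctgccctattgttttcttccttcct
*Cenpl*, chr1:161070517-161070796, plus strand: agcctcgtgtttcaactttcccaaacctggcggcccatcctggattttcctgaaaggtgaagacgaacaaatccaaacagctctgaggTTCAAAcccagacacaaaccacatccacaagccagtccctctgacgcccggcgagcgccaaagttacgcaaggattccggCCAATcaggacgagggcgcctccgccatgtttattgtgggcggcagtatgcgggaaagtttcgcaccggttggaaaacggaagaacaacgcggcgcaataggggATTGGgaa
*Ncapg*, chr5:45669675-45669954, plus strand: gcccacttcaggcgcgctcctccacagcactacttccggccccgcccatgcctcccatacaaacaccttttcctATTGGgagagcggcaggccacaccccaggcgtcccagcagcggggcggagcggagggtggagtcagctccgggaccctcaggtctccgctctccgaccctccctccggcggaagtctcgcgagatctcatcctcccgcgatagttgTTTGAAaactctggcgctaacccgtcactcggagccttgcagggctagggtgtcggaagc
In *Cenpf* the homology region lies just after the annotated start and 2 CCAAT boxes lie before it. *Mki67* has 2 homology regions downstream of 3 boxes, and *Ncapd2* has its homology region among 3 boxes. In *Cenpl* the region lies upstream of both boxes, of which the second lies after the start. *Ncapg* has 1 of each.

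**Figure D2:**
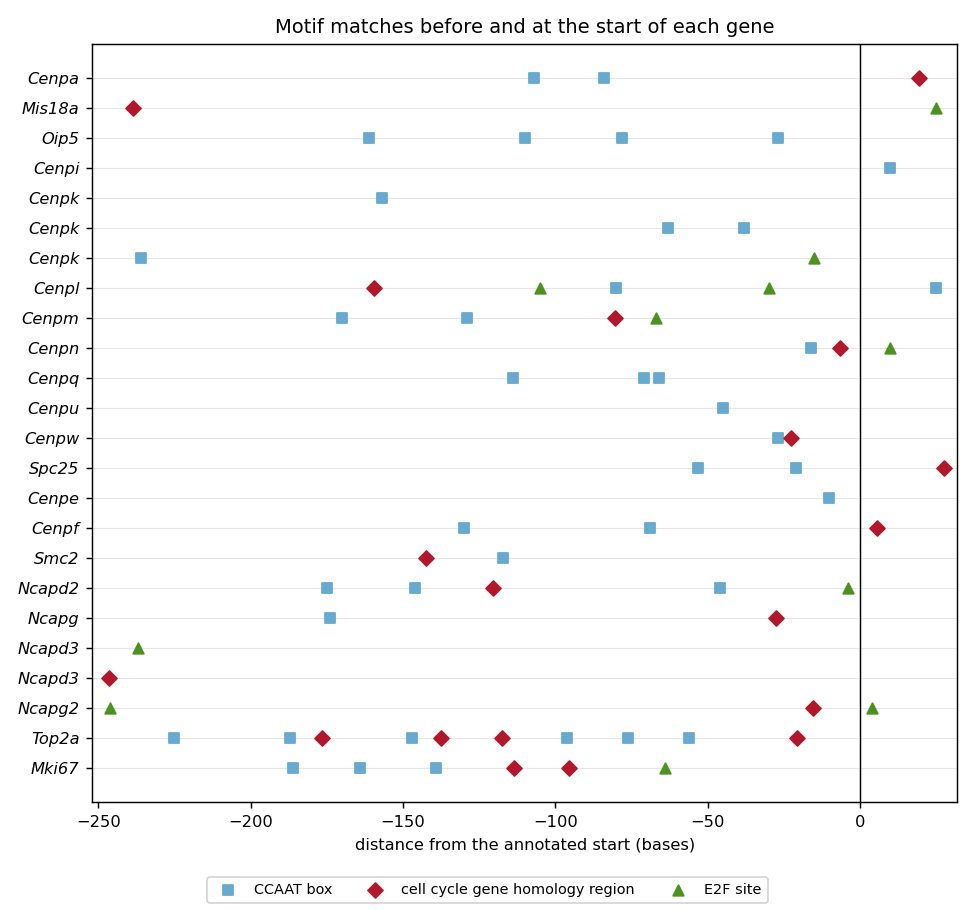
Position of each motif match (x axis, bases from the annotated start, which is at 0) in the promoter windows of the 21 genes with any match, a row per window. CCAAT boxes (squares) lie mostly before the start, *Top2a* carries the most matches, with 4 homology regions (diamonds) and 6 boxes, and E2F sites (triangles) are few.

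The histone CENP-A and the MIS18 complex that helps to place it were read by 3 genes, whose median difference was 0.72 (1.05 against WT replicate 1 and 0.38 against WT replicate 2). *Cenpa*, which codes for the histone itself, had log2 values of 9.90 and 10.57 in WT and 11.12 and 10.79 in KO, replicate 1 first here and in all that follows. The groups did not overlap, but WT replicate 2 lay closer to KO replicate 2 than to WT replicate 1, and the difference of 0.72 (SE 0.24) had an adjusted p of 0.259 from limma. *Oip5*, which codes for MIS18 beta, had 7.09 and 7.76 in WT and 8.55 and 8.49 in KO. Here both arrays labelled KO were clear of both WT arrays, with a difference of 1.09 (SE 0.23, adjusted p = 0.103). Its partner in the MIS18 complex, *Mis18a*, had 7.89 and 8.54 in WT and 8.81 and 8.66 in KO, a difference of 0.52 (SE 0.22, adjusted p = 0.358). For *Mis18a* the step was 0.20 against WT replicate 2 and 0.84 against WT replicate 1, so most of it lay between the WT arrays. The gap between *Oip5* and *Mis18a* was not tested.

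The constitutive centromere-associated network was the most uneven group, from 0.14 to 1.42 over its 12 measured genes, with a median of 0.83 (1.15 against WT replicate 1 and 0.60 against WT replicate 2). CENP-H, CENP-I, CENP-K and CENP-M form a subcomplex, and their genes had the highest differences of the network as a set, with a median of 1.22 (1.63 and 0.74 against WT replicates 1 and 2). *Cenpm* had 8.04 and 9.44 in WT and 10.26 and 10.05 in KO. Its difference of 1.42 (SE 0.41, adjusted p = 0.202) was the largest of all 30 genes and so was the gap of 1.40 between its WT values. *Cenph* had 6.30 and 7.44 in WT and 8.29 and 8.11 in KO, again with a wide gap in WT, for a difference of 1.33 (SE 0.34, adjusted p = 0.161). *Cenpk* had 6.99 and 7.49 in WT and 8.62 and 8.08 in KO. The WT values of *Cenpk* were closer to each other than those of the arrays labelled KO, and its difference was 1.11 (SE 0.24, adjusted p = 0.110). *Cenpi* had 7.13 and 7.61 in WT and 8.31 and 8.16 in KO, a difference of 0.87 (SE 0.19, adjusted p = 0.112).

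CENP-N and CENP-L bind each other, CENP-N reading the CENP-A nucleosome, and their genes had differences of 1.17 and 0.65. *Cenpn* had 8.89 and 9.96 in WT and 10.71 and 10.48 in KO. *Cenpl* had 7.52 and 7.68 in WT and 8.34 and 8.16 in KO. The WT arrays lay 1.07 apart for *Cenpn* and 0.16 apart for *Cenpl*, so that against WT replicate 2 alone these genes were alike, with 0.64 and 0.57. Limma gave adjusted p values of 0.186 for *Cenpn* and 0.111 for *Cenpl*.

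The genes of CENP-O, CENP-P, CENP-Q and CENP-U, which form another subcomplex, ran from 0.14 to 0.89. *Cenpo* had 8.68 and 8.59 in WT and 8.89 and 8.66 in KO. It is the only gene of the 30 whose groups overlapped and whose higher WT array was replicate 1, and its difference was 0.14 (SE 0.14, adjusted p = 0.660). *Cenpp* had 7.17 and 7.39 in WT and 8.42 and 7.93 in KO, a difference of 0.89 (SE 0.19, adjusted p = 0.111). Both arrays labelled KO were clear of WT for *Cenpp*, by 0.78 on average from WT replicate 2. *Cenpq* had 7.60 and 8.41 in WT and 8.85 and 8.72 in KO, and *Cenpu* had 7.07 and 8.10 in WT and 8.56 and 8.21 in KO. These last genes had differences of 0.78 (SE 0.26, adjusted p = 0.253) and 0.80 (SE 0.33, adjusted p = 0.343), which came to 0.37 and 0.28 against WT replicate 2.

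CENP-T and CENP-W are histone-fold proteins that bind DNA and, through CENP-T, reach out to NDC80. *Cenpt* had 8.91 and 9.46 in WT and 9.76 and 9.49 in KO. WT replicate 2 all but touched KO replicate 2, and the difference of 0.44 (SE 0.21, adjusted p = 0.398) was 0.17 against WT replicate 2. *Cenpw* was the dimmest of the 30 genes, at the 14.9th percentile of all genes by mean level, with 5.30 and 5.57 in WT and 6.15 and 5.97 in KO. Its difference was 0.62 (SE 0.15, adjusted p = 0.147).

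**Figure D3:**
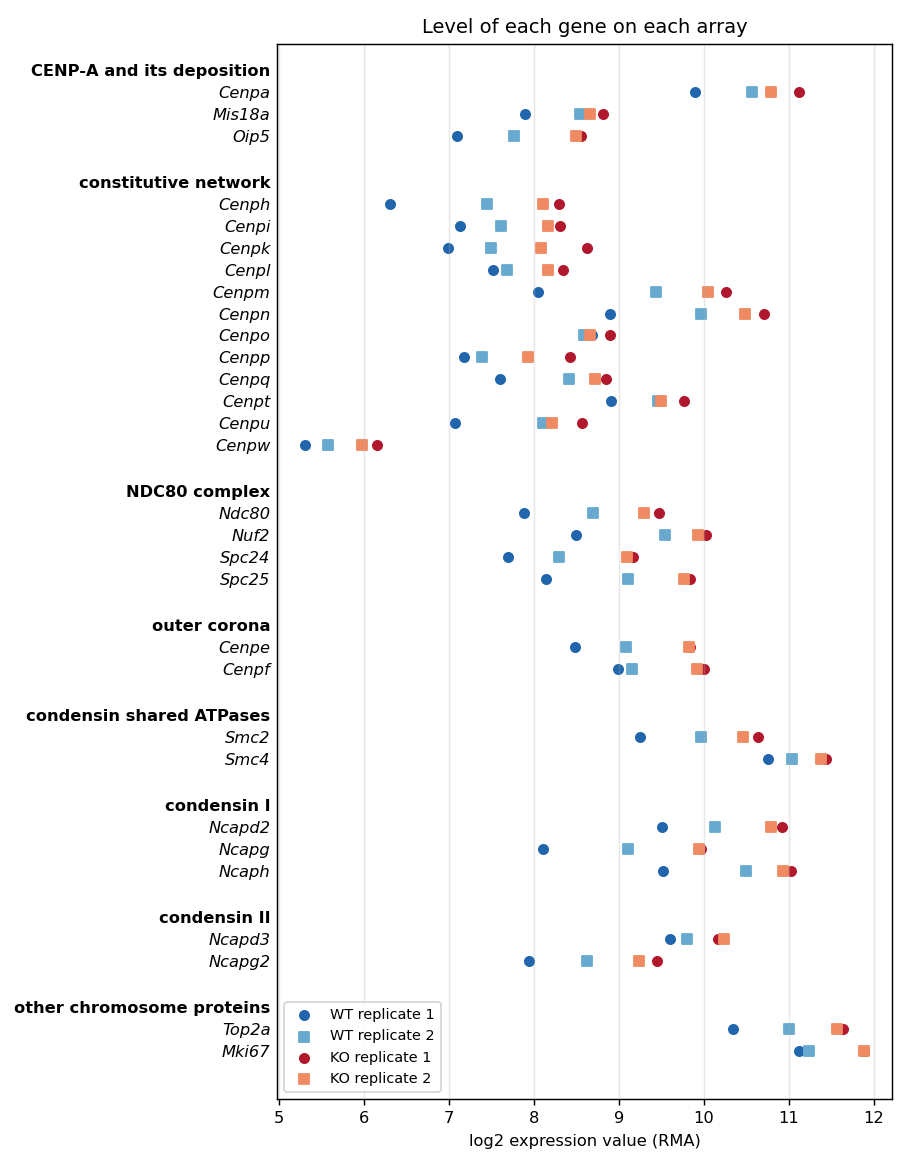
Log2 expression value (x axis) of each of the 30 genes on each array, grouped by complex, with WT in blue and KO in red and a point per array. WT replicate 1 lies leftmost for every gene but *Cenpo*, where WT replicate 2 does. For all others WT replicate 2 lies between WT replicate 1 and the red points. WT replicate 2 comes near KO replicate 2 for *Mis18a*, *Cenpt*, *Cenpu* and *Cenpo*.

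The NDC80 complex, which couples the kinetochore to microtubules, had a median of 1.12 (1.49 against WT replicate 1 and 0.69 against WT replicate 2), and its 4 genes lay close together, from 0.96 to 1.17. *Ndc80* had 7.88 and 8.69 in WT and 9.47 and 9.29 in KO, a difference of 1.09 (SE 0.26, adjusted p = 0.143). *Nuf2*, whose protein pairs with NDC80 to bind the microtubule, had 8.49 and 9.54 in WT and 10.02 and 9.93 in KO, a difference of 0.96 (SE 0.32, adjusted p = 0.254). *Spc24* and *Spc25* code for the pair at the chromosome end of the complex. *Spc24* had 7.69 and 8.29 in WT and 9.17 and 9.09 in KO, and *Spc25* had 8.14 and 9.11 in WT and 9.84 and 9.76 in KO. Their differences were 1.14 (SE 0.21, adjusted p = 0.0817) and 1.17 (SE 0.30, adjusted p = 0.157). In all 4 genes the arrays labelled KO lay within 0.18 of each other and above both WT arrays, while the WT arrays lay 0.60 to 1.06 apart. Against WT replicate 2 alone, *Spc24* kept the largest step, 0.84, *Ndc80* and *Spc25* had 0.69, and *Nuf2* had the smallest, 0.43.

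*Cenpe*, a kinesin motor of the outer corona that moves chromosomes to the spindle equator, had 8.48 and 9.08 in WT and 9.84 and 9.82 in KO. *Cenpf*, a large protein of the same layer, had 8.99 and 9.15 in WT, 9.92 in KO replicate 2 and 0.09 more in KO replicate 1. Both pairs of *Cenpf* values are tight, and its difference of 0.89 (SE 0.13) was the nearest to the threshold, with an adjusted p of 0.0511 from limma. *Cenpe* had a difference of 1.05 (SE 0.21, adjusted p = 0.0916). *Cenpf* depended little on the choice of WT array, with steps of 0.97 and 0.81, and the median of both genes against WT replicate 2, 0.78, was the highest of the complexes.

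Condensin is a ring of a pair of ATPases, SMC2 and SMC4, closed by 3 further subunits, which differ between condensin I, active on chromosomes after the nuclear envelope opens, and condensin II, which acts in the nucleus from prophase on. The shared ATPases had differences of 0.94 for *Smc2* (SE 0.24, adjusted p = 0.161) and 0.52 for *Smc4* (SE 0.15, adjusted p = 0.194). *Smc2* had 9.25 and 9.97 in WT and 10.64 and 10.46 in KO. *Smc4* had 10.75 and 11.04 in WT and 11.44 and 11.38 in KO. The groups of both genes were apart, with *Smc4* showing the narrower spread in WT, and against WT replicate 2 alone they stood at 0.58 and 0.37.

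The genes of condensin I had a median difference of 1.04 (1.45 against WT replicate 1 and 0.73 against WT replicate 2). *Ncapg* had 8.11 and 9.10 in WT and 9.97 and 9.94 in KO, and its difference of 1.35 (SE 0.30, adjusted p = 0.124) was the second largest of the 30 genes. *Ncapd2* had 9.51 and 10.13 in WT and 10.92 and 10.79 in KO, a difference of 1.04 (SE 0.22, adjusted p = 0.103). *Ncaph*, which codes for the kleisin that closes the ring, had 9.52 and 10.50 in WT and 11.02 and 10.93 in KO, a difference of 0.96 (SE 0.30, adjusted p = 0.222). All 3 genes had values labelled KO above both WT values, at a distance from WT replicate 2 of 0.85, 0.73 and 0.48. In condensin II, *Ncapg2* had 7.94 and 8.62 in WT and 9.45 and 9.24 in KO, a difference of 1.07 (SE 0.23, adjusted p = 0.114). *Ncapd3* had 9.60 and 9.80 in WT and 10.17 and 10.24 in KO, a difference of 0.50 (SE 0.14, adjusted p = 0.174). The kleisin of condensin II, *Ncaph2*, had 9.32 and 9.84 in WT and 10.06 and 10.08 in KO, a difference of 0.49 (SE 0.19, adjusted p = 0.325). *Ncapd3* and *Ncaph2* thus had about the same difference, and *Ncapg2* one close to the condensin I genes. Against WT replicate 2 alone, *Ncapg2* had 0.73, *Ncapd3* 0.41 and *Ncaph2* 0.23. A difference between the complexes was not tested.

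*Top2a*, which codes for the topoisomerase that untangles chromosomes in mitosis, had 10.34 in WT replicate 1, 0.66 more in WT replicate 2, and 11.64 and 11.57 in KO, a difference of 0.94 (SE 0.22, adjusted p = 0.137). A second probe set of *Top2a* was far dimmer, with 4.70 and 4.08 in WT and 4.58 and 4.33 in KO, and the difference was 0.50 with the mean of both probe sets. The brighter one stood 1.27 above WT replicate 1 and 0.61 above WT replicate 2. *Mki67*, the gene of Ki-67 and the brightest of the 30 at the 96.1st percentile, had 11.12 and 11.24 in WT and 11.89 and 11.89 in KO. Its values lay close within each group, and the difference was 0.71 (SE 0.13, adjusted p = 0.0780). Like *Cenpf*, *Mki67* kept its size against either WT array, at 0.77 and 0.65.

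**Figure D4:**
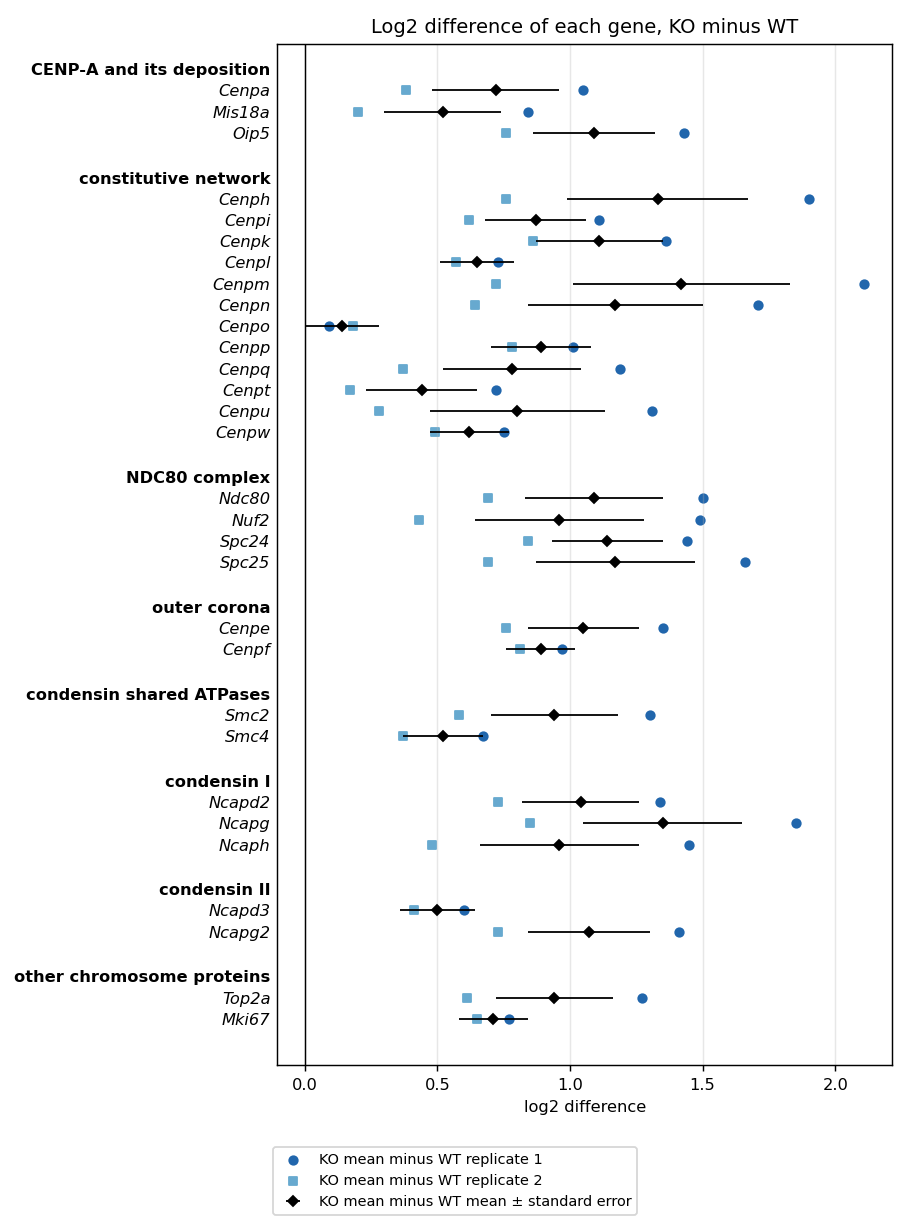
Log2 difference of each gene (x axis), as KO mean minus WT mean with its standard error from limma (black), and as KO mean minus WT replicate 1 (circles) or WT replicate 2 (squares). All points lie above 0, circles and squares are far apart for *Cenpm*, *Cenph* and *Nuf2* and close for *Cenpf*, *Mki67* and *Cenpl*.

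The genes differed in how wide the gap between the WT arrays was. In 14 of the 30 genes, with both arrays labelled KO above WT replicate 2 and that above WT replicate 1, the upper step (KO mean over WT replicate 2) was larger than the lower one, a pattern of 5.15% of all genes. *Cenpf* (0.81 against 0.16), *Mki67* (0.65 against 0.12), *Cenpp* (0.78 against 0.22) and *Cenpl* (0.57 against 0.16) are of this kind. In *Cenpu* (0.28 against 1.03), *Cenpm* (0.72 against 1.40) and *Nuf2* (0.43 against 1.06), most of the distance lay between the WT arrays.

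Other genes of the same structures, from a list of 39, were described in the same way, and 38 were measured. The KO mean was the higher one for all 38, by a median of 0.69, and 34 had groups that did not overlap, shares of all genes being 41.2% and 17.6%. Limma's adjusted test called none of them, and 26 had an unadjusted p under 0.05, all of them higher, against 5.88% of all genes. The genes with the smallest p were *Kntc1*, a part of the RZZ complex of the outer corona, *Ttk*, the checkpoint kinase MPS1, *Sgo1*, the shugoshin that guards cohesion at the centromere, and *Knl1*, the scaffold on which the checkpoint proteins gather. *Kntc1* had 7.32 and 7.84 in WT and 8.76 and 8.54 in KO, a difference of 1.07 (SE 0.20, adjusted p = 0.0825 from limma). *Ttk* had 7.74 and 8.36 in WT and 9.33 and 9.05 in KO, *Sgo1* had 8.23 and 8.93 in WT and 9.77 and 9.71 in KO, and *Knl1* had 9.54 and 9.92 in WT and 10.59 and 10.49 in KO. Their differences were 1.13, 1.16 and 0.81, with adjusted p values of 0.0928, 0.0937 and 0.0960. In each of these genes the arrays labelled KO lay above both WT arrays, and WT replicate 1 was lowest. Against WT replicate 2 alone the steps were 0.81 for *Kntc1*, 0.83 for *Ttk*, 0.81 for *Sgo1* and 0.62 for *Knl1*.

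Within this list the chromosomal passenger genes (*Aurkb*, *Incenp*, *Birc5* and *Cdca8*), which correct faulty attachments, had differences of 0.98 to 1.12. The 6 checkpoint genes ran from 0.28 to 1.23. The genes of the MIS12 complex and KNL1 ran from 0.49 for *Mis12* to 1.01, and *Zwint*, listed with them, had 0.38. The groups of *Mis12* and *Zwint* overlapped. Genes of the SKA complex ran from 0.63 to 1.47. The 5 genes of core cohesin, which holds sister chromatids and shapes chromatin in all phases, ran from 0.13 to 0.33, and *Cenpb*, whose protein binds a repeat of centromeric DNA, had 0.05, which turned to −0.0066 with cyclic loess. *Top2b*, the topoisomerase II isoform of cells that do not divide as well, had 10.53 and 10.44 in WT and 10.59 and 10.65 in KO, a difference of 0.14 (SE 0.13, adjusted p = 0.617 from limma), beside 0.94 for *Top2a*. None of these contrasts between genes was tested.

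**Figure D5:**
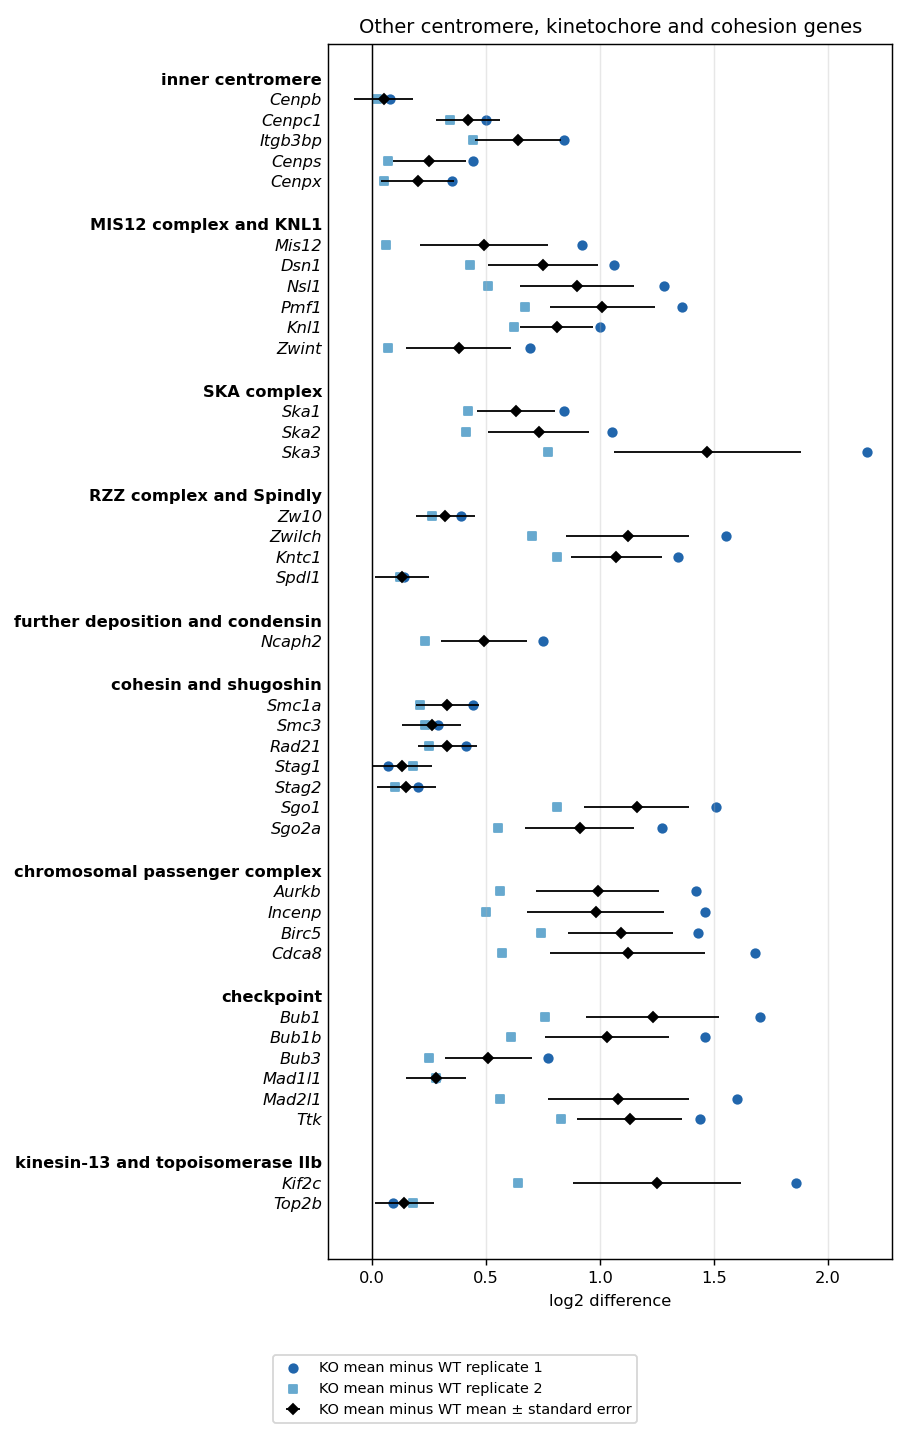
Log2 difference (x axis) of 38 other genes of the centromere, kinetochore, cohesin and checkpoint, as KO mean minus WT mean with its standard error (black), and against WT replicate 1 (circles) or WT replicate 2 (squares) alone. *Cenpb*, *Spdl1*, *Stag1*, *Stag2* and *Top2b* lie near 0, while *Ska3*, *Kif2c* and *Bub1* lie highest.

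Markers of other cells differed between the groups too. All 4 heart muscle markers lay higher in the arrays labelled KO without overlap, where 17.6% of all genes did. Their summed level was 11.78 and 11.64 in WT and 12.57 and 12.41 in KO as log2. *Nppa*, the atrial natriuretic peptide gene, had a difference of 1.78 (adjusted p = 0.0172). It passed limma's test, which 0.0802% of all genes passed as higher. For *Myh6* the groups came close, with 9.46 and 8.51 in WT and 9.80 and 9.57 in KO. Leukocyte markers had lower KO means, 4 of 4 without overlap, with a summed level of 10.74 and 10.98 in WT and 10.50 and 10.36 in KO, but 58.8% of all genes had a lower KO mean and 31.8% did so without overlap. The 3 erythroid markers measured, of 6 listed, also had lower KO means, 2 of them without overlap. Their sums were 11.88 and 11.87 in WT and 11.39 and 11.32 in KO. *Alas2* had a difference of −0.66, but *Slc4a1* only −0.10 and *Epb42* −0.05. Of 4 endothelial markers, 3 had lower KO means, with sums of 14.02 and 14.10 in WT and 13.83 and 13.79 in KO. Lung epithelium summed to 15.14 on both WT arrays and to 14.99 and 14.98 in KO, a sum to which the surfactant genes give most, while 3 of its 5 markers had a higher KO mean and the median difference was 0.017. Among them *Epcam*, an adhesion molecule of epithelial cells, had 9.65 and 10.16 in WT and 10.61 and 10.59 in KO. Its difference was 0.69 (limma adjusted p = 0.178). *Epcam* and *Nkx2-1* had the same order of arrays as 29 of the 30 genes, an order held by 15.3% of all genes. The surfactant genes *Sftpb* (difference −0.56, limma adjusted p = 0.124) and *Sftpc* (−0.096) had lower KO means, both without overlap. Lung mesenchyme summed to 14.15 and 14.20 in WT and 14.21 and 14.25 in KO. Thymus (4 of 4) and liver (3 of 3) markers had lower KO means, and their sums on all arrays lay between 8.32 and 8.93. The sum was higher in WT replicate 2 than in WT replicate 1 for leukocyte, endothelial, mesenchymal and liver markers. The part of these cell types in the differences of the 30 genes was not tested.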

How the data were processed

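Lung RNA of E18.5 embryos was hybridised to 4 Affymetrix arrays, 2 WT and 2 KO by title. The table deposited holds log2 expression of 30177 probe sets, computed with RMA, for which Expression Console is named in the submitters' processing notes. Versions are not given in the sources used here, and the values carry no detection call. The platform's annotation, which can be old, gives 21789 probe sets 1 symbol, 1621 several and 6767 none, and 19856 of the 19938 genes matched RefSeq GRCm38.p6 by Entrez ID. A group fit by lmFit and eBayes (limma 3.58.1 under R 4.3.3, residual degrees of freedom 2, prior 4.42) gave two-sided p values, with a Benjamini-Hochberg threshold of 0.05 across all genes. The code was tested on simulated data. The number of arrays limits the precision. The 30 genes and the lists were chosen with earlier results of these data known. All 30 genes are named, and of the other list the 4 with the smallest p, since none passed, and genes that a comparison turns on, chosen after their values were seen. The promoter motifs and window were also chosen after the values were seen. Other settings tried were centring, the replicate number as a block, cyclic loess, a filter on the dimmest 40 percent, the mean of all probe sets, trend with robust, and leaving out each array. A crossed block was added after seeing the data. Plots and motif searches used Python 3.11.15 with matplotlib 3.10.9.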

Additional observations from a re-analysis of the deposited data

How the results depend on the processing

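All 30 genes kept a difference above 0 under every alternative that tested them, which was all 11 for 28 of them. The replicate block, the crossed block, trend with robust and the filter on dim genes cannot move the difference of a gene. The count of 0 genes called by limma was also 0 with trend and robust and with the mean of all probe sets. It became 2 with each array centred on its median (*Cenpf* and *Spc24*, with 0.366% of all genes), 4 with cyclic loess (*Cenpf*, *Mki67*, *Spc24* and *Cenpl*, with 0.401%), 4 of 28 without the dimmest 40 percent of genes (*Cenpf*, *Spc24*, *Cenpe* and *Oip5*, with 0.619% of the genes tested), where fewer genes are tested, and 0 to 29 when 1 array was left out. For the other genes of the machinery, the count of 0 became 2 with centring (*Kntc1* and *Ttk*) and 2 with cyclic loess (*Knl1* and *Kntc1*). Without the dimmest 40 percent it was 3 (*Kntc1*, *Sgo1* and *Ttk*). The median of the 30 genes ran from 0.63 without WT replicate 1 to 1.31 without WT replicate 2, that of condensin I from 0.73 to 1.45, and that of *Top2a* and *Mki67* was 0.61 with the mean of all probe sets. *Cenpb* turned to −0.0066 with cyclic loess. The adjusted p of *Cenpf* ran from 9.24e-09 without WT replicate 2 to 0.936 without KO replicate 2. Where not stated, the cause was not tested.

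Replicate numbers are shared by the groups only as numbers. The gap between replicates 1 and 2 correlated at r = −0.238 between WT and KO over genes. With the replicate block, limma called 18 of the 30 genes and 15 of the 38 other genes higher, with 1.21% of all genes, and with crossed numbers, added after seeing the data, 11 and 9, with 1.04%.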
